A study of Mus musculus with 36 samples.

Results

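The BCL2 family of survival and death genes was followed in mouse gonads lacking the miR-17~92 microRNA cluster. The 10 genes Bcl2, Bcl2l1, Mcl1, Bax, Bak1, Bcl2l11, Bbc3, Pmaip1, Bid and Bmf were taken by symbol from the 21699 genes of each count table. Each of the 10 had 1 entry in both tables and passed the filter on low counts at both stages. RNA-seq libraries came from control and KO embryos of both sexes, XX and XY, at embryonic days E11.5 and E12.5, with 3 libraries per genotype and stage and 24 in all. KO embryos carried the deleted allele of the cluster on both chromosomes (del/del). The deletion was made with the transgene Tg(CAG-cre)1Nagy, in which the ubiquitous CAG promoter drives the Cre recombinase, so that the loss was not limited to the gonad or to 1 cell type. Controls are labelled as wild type, and no agent was given to any group. The E11.5 samples were gonads with the attached mesonephros, the E12.5 samples were gonads alone, and the stages also differed in library kit, so that levels are set side by side and not compared between stages. Each replicate was a pool of 2 gonad pairs.

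BCL2 family proteins decide whether the outer mitochondrial membrane stays intact. BH3-only proteins sense stress and withdrawal of growth signals, the pro-survival proteins bind and hold them back, and the effectors BAX and BAK open the membrane when they are released. In the fetal gonad this pathway is known for the culling of germ cells. The miR-17~92 cluster is known for repressing Bcl2l11, the gene of the BH3-only protein BIM.

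The cluster encodes 6 mature guide microRNAs that fall into 4 seed families, and they are shown because the seed (bases 2 to 8, in capitals) is the stretch that pairs with target transcripts. The sequences are those of RefSeq on GRCm38.p6, from the plus strand of chr14:115043684-115044496.
miR-17-5p: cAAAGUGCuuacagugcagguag
miR-20a-5p: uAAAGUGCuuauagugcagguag
miR-18a-5p: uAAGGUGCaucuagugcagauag
miR-19a-3p: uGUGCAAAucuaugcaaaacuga
miR-19b-3p: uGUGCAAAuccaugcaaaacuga
miR-92a-3p: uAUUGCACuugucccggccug
The seed of miR-17-5p and miR-20a-5p is the same, as is that of miR-19a-3p and miR-19b-3p, whereas miR-18a-5p and miR-92a-3p each have their own. The complement of the seed was searched in the annotated 3′ UTRs (GENCODE M21, GRCm38) on the transcript strand alone, as GCACTTT for the miR-17 family, GCACCTT for miR-18, TTTGCAC for miR-19 and GTGCAAT for miR-92. Of the 20997 protein-coding genes with an annotated 3′ UTR, 12.45% held the miR-17 letters, 8.29% the miR-18 letters, 12.03% the miR-19 letters and 6.94% the miR-92 letters. The 10 genes held 15 such matches, none overlapping one of another family, and 6 of the 15 were in Bcl2l11. At least 1 match was held by 7 of the 10, beside 30.03% of the 20997 genes, without regard to 3′ UTR length. Bax, Bbc3 and Pmaip1 held none, and no gene of the 10 held the miR-18 letters. A match is a string of letters and not evidence of binding.

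**Figure D1:**
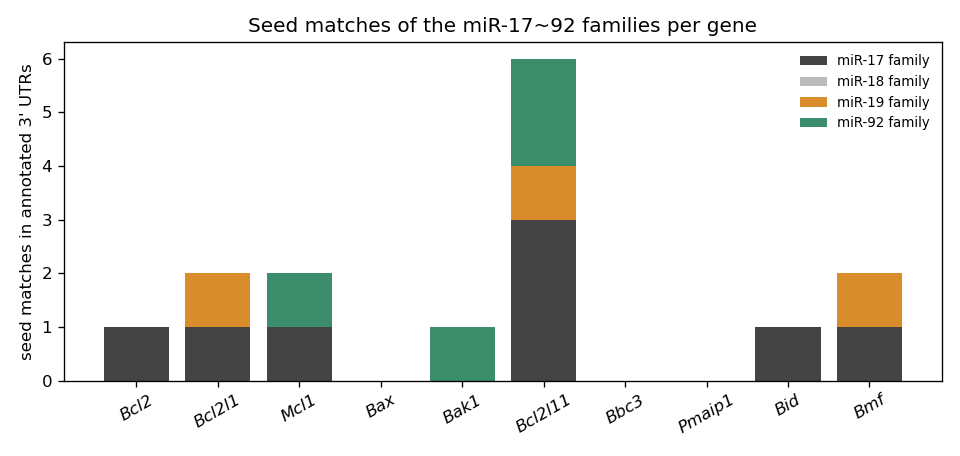
Seed matches (y axis, number) of the 4 seed families in the annotated 3′ UTRs of each of the 10 genes (x axis), counted once per genome position. Bcl2l11 has 6 matches, the other genes have 0 to 2, and the miR-18 family has none.

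Bcl2l11 (ENSMUSG00000027381, chr2:128126038-128162547, plus strand) has an annotated 3′ UTR of up to 4218 bases. Its matches are printed because it is the best known target of the cluster among these genes; capitals mark the seed match, with the A that follows it where the match is of the longer 8mer form.
miR-17 family, chr2:128129715-128129739: ggggacagtgGCACTTTggagagtg
miR-17 family, chr2:128159768-128159792: tggtggaggaGCACTTTctaacctg
miR-17 family, chr2:128160442-128160466: cccgactggaGCACTTTActgtctc
miR-92 family, chr2:128161164-128161188: aaatgtctctGTGCAATtgtgttcc
miR-19 family, chr2:128162397-128162421: tcctttacgtTTTGCACtgatgaat
miR-92 family, chr2:128162439-128162463: cactgtacctGTGCAATActgctgt
The first of these lies in the 3′ UTR of 1 isoform, from base 27 after its stop codon, and the other 5 lie in the longest 3′ UTR. Among the 1420 genes whose longest 3′ UTR was 0.8 to 1.2 times as long as that of Bcl2l11, 32.3% held the miR-17 letters. The miR-19 letters were held by 30.6% and the miR-92 letters by 18.6% of them. Counted over all annotated 3′ UTRs of a gene, as for the 6 of Bcl2l11, 0.56% held 6 or more matches and 1.62% held 5 or more.

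Depth ranged from 17150620 to 34077443 counts per library at E11.5 and from 11877379 to 44155275 at E12.5. Xist, expressed from the inactive X, stood at 1340 to 2990 CPM (counts scaled to library size) in XX libraries and 0.434 to 4.72 CPM in XY libraries, and the Y-linked Ddx3y at 100 to 209 CPM in XY libraries and 0 to 0.369 CPM in XX libraries, as the labels say. Mir17hg, the host transcript of the cluster, was at 13.4 to 44.6 CPM in control and 66.7 to 154 CPM in KO libraries; the cluster spans 813 of its 3536 exonic bases, so that its gene total does not check the deletion. The E12.5 library XX KO replicate 2 stood furthest from its group (correlation of log2 values with its replicates 0.982 and 0.983, against 0.986 to 0.994 for the other pairs of that stage). At E11.5 it was XY control replicate 2 (0.984 and 0.988, against 0.991 to 0.996). Every cell marker list had counts in sum in every library, including mesonephric markers at 154 to 479 CPM in the isolated E12.5 gonads. Single markers did not. The Sertoli marker Etd had no counts in E11.5 XX control, XX KO and XY KO gonads or in E12.5 XX KO gonads. A summed level does not show that the cell type was present.

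**Figure D2:**
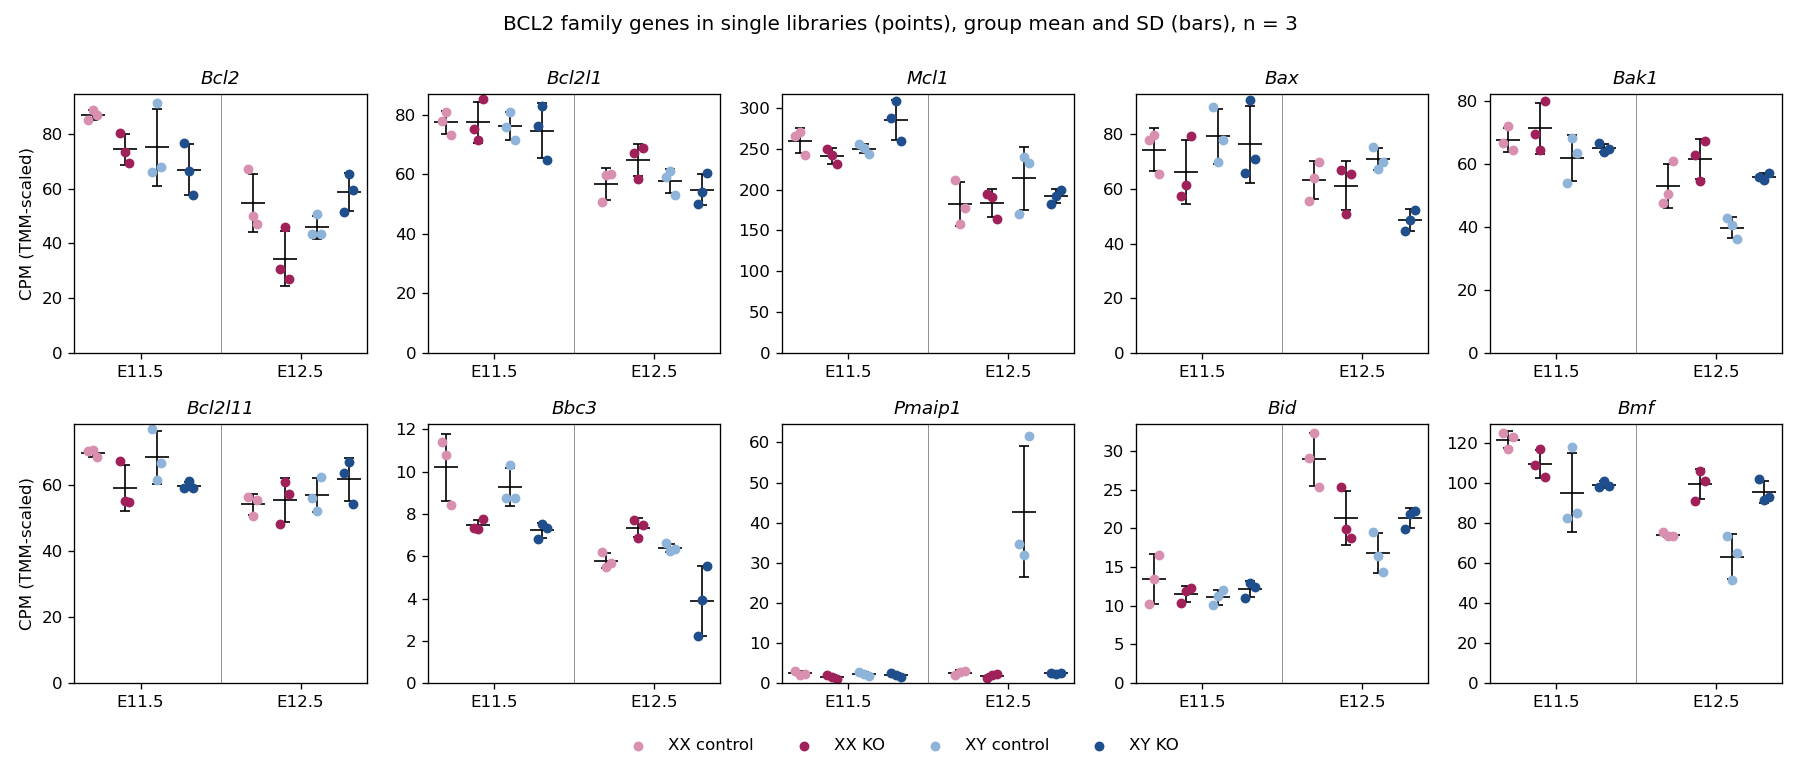
Level of each of the 10 genes (y axis, CPM after TMM scaling, from 0) in the 12 libraries of each stage (x axis), coloured by genotype; points are libraries and bars the group mean and SD (n = 3). Pmaip1 at 32.0 to 61.6 CPM in E12.5 XY controls stands apart from its 9 other libraries of that stage at 1.38 to 3.13 CPM.

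Per kilobase of annotated exon, the scale on which genes can be compared, Mcl1 was the highest of the 10 at both stages, with group means of 70.6 to 83.4 CPM per kb at E11.5 and 53.3 to 62.6 at E12.5. The effector Bax followed at 42.0 to 50.3 and 30.8 to 45.0 CPM per kb. Bak1, Bmf and Bcl2l1 lay at 12 to 29.7 CPM per kb over both stages. Bcl2 and Bcl2l11 lay at 3.77 to 9.49, Bid at 3.13 to 8.15 and Bbc3 at 1.83 to 4.81 CPM per kb. Pmaip1 was the lowest gene in every group at 0.566 to 0.947 CPM per kb, apart from E12.5 XY controls, where it reached 15.6 ± 6.0 (SD, n = 3).

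To ask which of these genes differ with sex or with loss of the cluster, each comparison was tested with the quasi-likelihood test of edgeR over all genes of the stage, and a gene was called at a false discovery rate (FDR, Benjamini-Hochberg) below 0.05. At E11.5 none of the 10 genes was called in any comparison. The share of all 14217 tested genes called was 0.886% between XX and XY controls, 12.7% in XY KO against XY control (5.88% higher and 6.81% lower) and 3.27% in XX KO against XX control (1.81% higher and 1.46% lower). It was 0.0844% between the KO sexes and 0.0352% for the difference of the KO effect between sexes. With XY control replicate 2 left out, the test between controls called 2505 genes in place of 126, Bcl2 and Bmf among them, and XY KO against XY control 2899 in place of 1804, Bmf among them. At an unadjusted edgeR p below 0.05 the number of the 10 genes was 3 for XX KO and 1 for each of the other 4 comparisons. Over all 14217 genes it was 2228 for XX KO, 4106 for XY KO and 2546 between controls. Between the KO sexes it was 2291, and for the difference of the KO effect 1825. DESeq2 called 0 of the 10 in each comparison, beside 167 to 2347 over all genes, giving no adjusted p for Bbc3, Pmaip1 and Bid between the KO sexes. The median log2 fold change of the 10 genes was -0.04 in XY KO and -0.20 in XX KO against their controls, beside -0.03 and 0.00 over all tested genes.

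At E12.5, when testis and ovary have begun to diverge, 4 of the 10 genes were called in XY KO against XY control: Bak1 and Bmf were higher, Pmaip1 and Bax lower. Over the 14348 tested genes the background was 20.6%, with 10.3% higher and 10.3% lower. Between XX and XY controls 3 of 10 were called (Bid and Bak1 higher in XX, Pmaip1 lower) against a background of 23.8%. XX KO against XX control gave 0 of 10 (background 5.26%, with 3.42% higher and 1.85% lower). In it 3 had an unadjusted edgeR p below 0.05, beside 3385 of the 14348 genes, and DESeq2 called 2, beside 1456 over all genes. XX KO against XY KO gave 0 of 10 (background 0.153%). Here 3 had an unadjusted edgeR p below 0.05, beside 2752 of the 14348 genes, and DESeq2 called 1, beside 66 over all genes. Without XX KO replicate 2 the edgeR test between the KO sexes called 1828 genes in place of 22, with Bcl2, Bax and Bbc3 among them. For 3 genes, Pmaip1, Bcl2 and Bid, the effect of the KO differed between XY and XX gonads (background 12.9%). The median log2 fold change of the 10 genes was 0.02 in both KO comparisons, beside -0.01 in XY and 0.00 in XX over all tested genes. Libraries are bulk tissue, in which fewer cells of a type and less RNA per cell cannot be told apart.

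**Figure D3:**
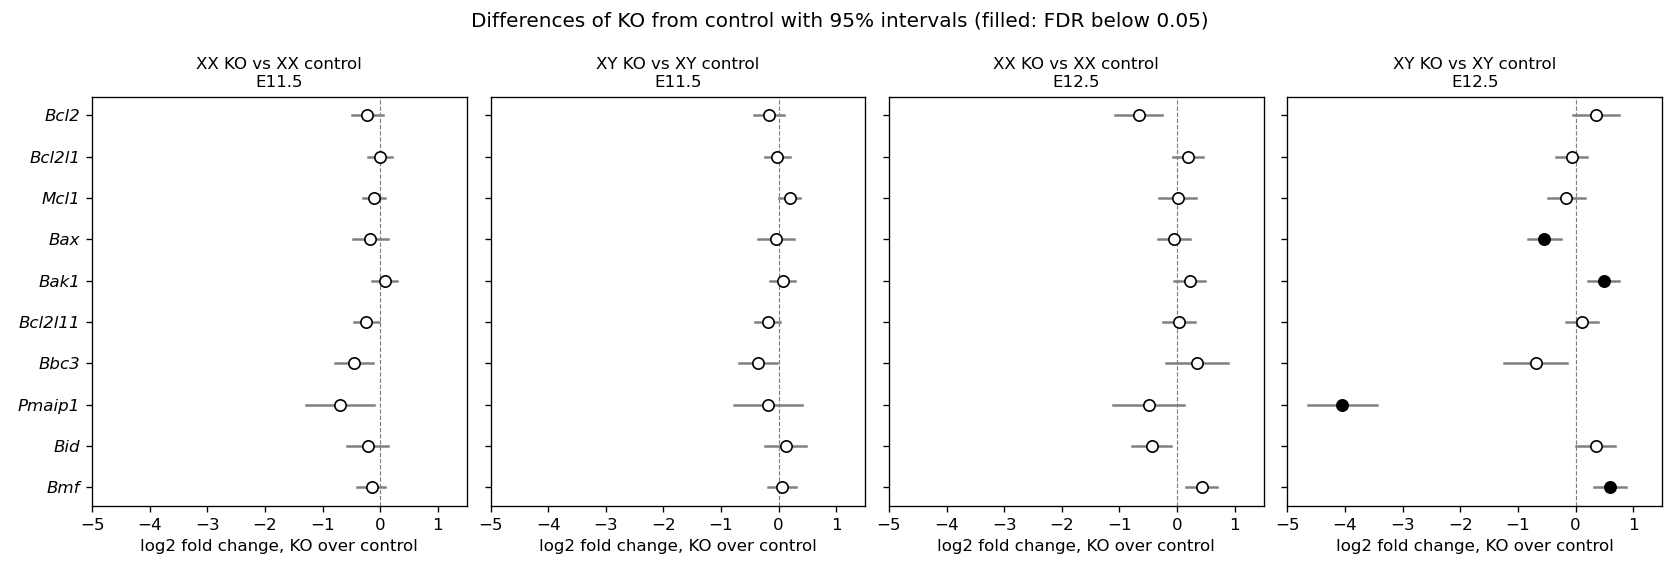
Log2 fold change of KO over control (x axis) for the 10 genes (y axis) in the 4 KO comparisons; lines are 95% intervals of the edgeR fit and filled points have an FDR below 0.05. Filled points are found in XY KO at E12.5 alone, with Pmaip1 at -4.05 and Bax, Bak1 and Bmf between -0.54 and 0.60.

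Among the pro-survival genes, Bcl2 was the one whose response to the KO differed between sexes at E12.5. Bcl2 (ENSMUSG00000057329, chr1:106538178-106714274, minus strand) encodes the founding member, which holds BH3-only proteins and effectors in check. It stood at 67.0, 50.2 and 47.1 CPM in XX controls and at 30.7, 45.9 and 26.9 CPM in XX KO gonads. XY controls held 43.4, 50.6 and 43.6 CPM and XY KO gonads 51.4, 65.3 and 59.5 CPM. The KO libraries lay below all controls in XX and above all controls in XY. For any gene, 3 against 3 libraries of groups that do not differ separate with a probability of 0.1. The share of all genes that separated was not counted. The log2 fold change was -0.66 (SE 0.19, FDR 0.0592) in XX and 0.36 (SE 0.19, FDR 0.224) in XY, neither of which passed the threshold. The difference between these effects did, at 1.02 on the log2 scale (SE 0.27, FDR 0.0212). Between the KO sexes Bcl2 differed by -0.77 (XX over XY, SE 0.19, FDR 0.235), which was not called although the libraries did not overlap.

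These Bcl2 calls depended on single libraries. Without the divergent XX KO replicate 2 the XX KO value was -0.93 (FDR 0.0111) and the value between the KO sexes -1.03 (FDR 0.0104), both then called. The XX KO value was -0.49 (FDR 0.208) without XX control replicate 1 and -0.51 (FDR 0.246) without XX KO replicate 3, and that between the KO sexes was -0.61 (FDR 0.615) without XX KO replicate 3. The sex difference of the KO effect was lost without XX control replicate 1 (0.85, FDR 0.0617), XX KO replicate 1 (0.94, FDR 0.0537), XY control replicate 1 (0.98, FDR 0.0586) or XY KO replicate 2 (0.93, FDR 0.0635). Germ cell markers moved beside Bcl2 in XX, with a summed level of 1160 to 1950 CPM in controls and 458 to 972 CPM in KO gonads. Of these markers 7 of 12 were lower, beside 1.85% of all tested genes. The part of germ cells in the Bcl2 difference was not tested. In XY the same sum was 1090 to 1400 CPM in controls and 843 to 1010 CPM in KO gonads. At E11.5 Bcl2 was at 85.2, 88.6 and 86.9 CPM in XX controls and 80.2, 73.4 and 69.3 CPM in XX KO gonads, a difference of -0.23 (SE 0.12, FDR 0.422). Its single seed match belongs to the miR-17 family (chr1:106540033-106540057, minus strand): agttaagggaGCACTTTcatgtagt.

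Bcl2l1 (ENSMUSG00000007659, chr2:152780668-152831728, minus strand), the gene of BCL-XL, was called in no comparison. Its libraries ranged from 65.0 to 85.3 CPM at E11.5 and from 50 to 68.7 CPM at E12.5, and groups overlapped in every comparison. The 95% intervals of its KO log2 fold changes lay within -0.34 to 0.45 in all 4 comparisons. Mcl1 (ENSMUSG00000038612, chr3:95658788-95663176, plus strand) encodes a short-lived pro-survival protein. At E11.5 it stood at 288, 308 and 259 CPM in XY KO and 256, 251 and 244 CPM in XY control gonads. These groups did not overlap, but the difference of 0.19 was not called (SE 0.09, FDR 0.181). E12.5 libraries held 158 to 240 CPM with overlap in every comparison. Mcl1 has an 8mer match of the miR-92 family from base 9 after its stop codon and one of the miR-17 family further on.
miR-92 family, chr3:95660822-95660846: agccttgtgaGTGCAATAggggact
miR-17 family, chr3:95662633-95662657: ggacttcagaGCACTTTAtgtagtt

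The effectors Bax and Bak1, whose proteins form the membrane pore, moved in opposite directions in XY KO gonads at E12.5. Bax (ENSMUSG00000003873, chr7:45461697-45466898, minus strand) stood at 75.5, 67.4 and 70.0 CPM in XY controls and fell to 44.5, 48.8 and 52.5 CPM in XY KO gonads. All KO libraries lay below all XY controls, with a log2 fold change of -0.54 (SE 0.13, FDR 0.00904), or 1.46-fold lower. XX controls (55.8, 64.2 and 69.9 CPM) and XX KO gonads (67.0, 50.9 and 65.7 CPM) overlapped each other. The KO effect on Bax was more negative in XY than in XX by 0.49 on the log2 scale, which was not called (SE 0.19, FDR 0.106). At E11.5 it ranged from 57.6 to 92.5 CPM with overlap between all groups.

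Bak1 (ENSMUSG00000057789, chr17:27019810-27029009, minus strand) stood at 42.8, 40.6 and 36.2 CPM in E12.5 XY controls and rose to 56.1, 55.1 and 57.1 CPM in XY KO gonads, by 0.49 on the log2 scale (SE 0.13, FDR 0.0126) or 1.41-fold. XX controls at 47.7, 50.5 and 60.9 CPM were also above XY controls, by 0.41 (SE 0.13, FDR 0.0299). XX KO gonads held 63.0, 54.7 and 67.3 CPM, a difference from XX controls of 0.22 (SE 0.13, FDR 0.312) that was not called. The KO effects on Bak1 differed between sexes by 0.27 (SE 0.18, FDR 0.356), also not called. The XY control libraries were the lowest 3 of the 12. Both calls share these XY control libraries and both were near the threshold. The KO call was lost without XY control replicate 3 (0.42, FDR 0.0535), and the call between controls was lost without XX control replicate 3 (0.30, FDR 0.143), XY control replicate 2 (0.42, FDR 0.0717), XY control replicate 3 (0.34, FDR 0.112) or XY KO replicate 2 (0.40, FDR 0.0509). At E11.5 the Bak1 libraries overlapped between all groups, at 54.1 to 80.2 CPM. Bak1 holds 1 match of the miR-92 family near the end of its 3′ UTR (chr17:27019812-27019836, minus strand): gaaataaactGTGCAATgcccccaa.

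Of the BH3-only genes, Bcl2l11 was not called higher in KO gonads at either stage. At E11.5 it stood at 70.3, 70.7 and 68.5 CPM in XX controls and 67.3, 55.3 and 55.0 CPM in XX KO gonads. XY controls held 77.1, 61.4 and 66.6 CPM and XY KO gonads 59.0, 61.1 and 59.1 CPM. In both sexes every KO library was below every control library. The log2 fold changes were -0.24 in XX (SE 0.10, 95% interval -0.45 to -0.02, FDR 0.255) and -0.19 in XY (SE 0.10, interval -0.41 to 0.02, FDR 0.215), the latter -0.09 (FDR 0.633) without XY control replicate 1. At E12.5 the values were 56.4, 50.6 and 55.4 CPM in XX controls and 48.1, 60.9 and 57.4 CPM in XX KO gonads. XY controls held 56.0, 52.3 and 62.6 CPM and XY KO gonads 63.8, 67.0 and 54.3 CPM. Groups overlapped in both sexes, with log2 fold changes of 0.04 in XX (SE 0.13, interval -0.24 to 0.31, FDR 0.89) and 0.11 in XY (SE 0.13, interval -0.16 to 0.39, FDR 0.599). The highest of the 4 upper bounds was 0.39 on the log2 scale, for the transcript level of the whole tissue. The value in XX at E12.5 changed sign without XX control replicate 2 (-0.01) or XX KO replicate 2 (-0.04), and that in XY ranged from 0.05 to 0.19 over the fits without 1 library.

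Pmaip1 (ENSMUSG00000024521, chromosome 18), which encodes NOXA, a BH3-only protein that acts on MCL1 and is a textbook p53 target, carried the largest difference of the 10. At E12.5 it stood at 34.6, 32.0 and 61.6 CPM in XY controls (709 to 794 counts). XY KO gonads held 2.63, 2.36 and 2.65 CPM, with 35 to 97 counts. XX controls were at 1.96, 2.67 and 3.13 CPM and XX KO gonads at 1.38, 1.92 and 2.18 CPM. The XY control libraries were far above the 9 others, which lay within 1.38 to 3.13 CPM. XY KO was 16.6-fold below XY control (log2 fold change -4.05, SE 0.28, FDR 1.88e-07), rank 50 by p-value among all tested genes. XX control was 16.5-fold below XY control (-4.05, SE 0.28, FDR 1.14e-07), a comparison that shares the XY control libraries.

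The KO effect on Pmaip1 differed between sexes by -3.56 on the log2 scale (SE 0.39, FDR 2.75e-05), since XX KO differed from XX control by -0.49 (SE 0.29, FDR 0.314). At E11.5 no group stood out. XX controls held 3.14, 2.1 and 2.37 CPM, XX KO gonads 1.91, 1.62 and 1.11 CPM, XY controls 2.71, 2.38 and 1.85 CPM, and XY KO gonads 2.44, 2.00 and 1.64 CPM. The E11.5 difference in XX was -0.69 without overlap of the libraries (SE 0.28, FDR 0.227, not called), and that in XY was -0.18 (SE 0.28, FDR 0.697). The difference between these E11.5 effects was 0.51 (SE 0.39, FDR 0.616, not called).

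Markers of testis cells moved with Pmaip1 at E12.5. Summed Sertoli cell markers were at 1950 to 2630 CPM in XY controls and 361 to 491 CPM in the other 9 libraries, with 9 of 10 markers lower in XY KO. Summed fetal Leydig cell markers were at 1180 to 2130 CPM in XY controls and 230 to 339 CPM elsewhere, with 6 of 6 lower in XY KO. The library order within XY controls was not shared: replicate 3, the highest for Pmaip1, had the lowest Sertoli sum and a Leydig sum of 2070 CPM, and the highest germ cell sum of 1400 CPM. At E11.5, Sertoli markers were already higher in XY controls (248 to 435 CPM in sum, against 141 to 225 CPM in the other groups), with 8 of 9 tested markers lower in XY KO, while Pmaip1 was at 1.85 to 2.71 CPM in those XY controls. Over all tested genes, 10.3% were lower in XY KO at E12.5 and 6.81% at E11.5. The part of these cell types in the Pmaip1 level was not tested.

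**Figure D4:**
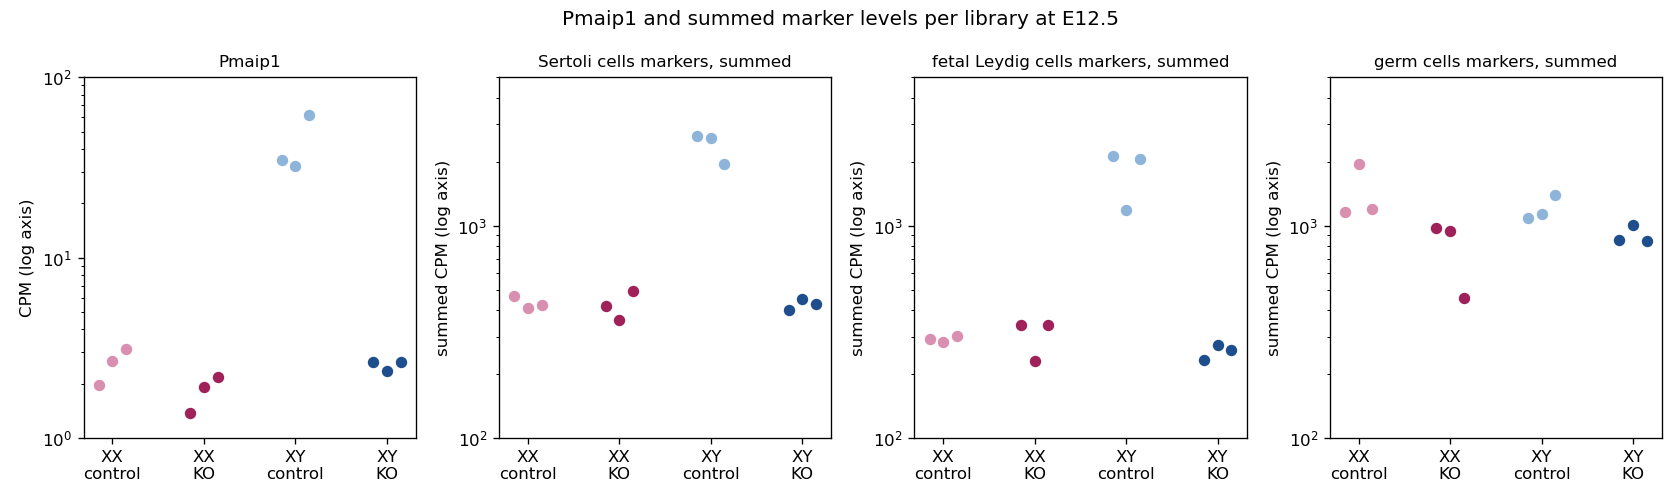
Pmaip1 (left, CPM) and the summed CPM of Sertoli cell, fetal Leydig cell and germ cell markers (other panels), all on log axes, in the 12 libraries at E12.5 by genotype (x axis); each point is a library. Pmaip1, Sertoli and Leydig levels are separated in the 3 XY control libraries, whereas the germ cell sums lie at 458 to 1950 CPM.

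Bmf (ENSMUSG00000040093, chr2:118528757-118549687, minus strand) encodes a BH3-only protein tethered to the cytoskeleton. At E12.5 it stood at 73.4, 51.3 and 64.8 CPM in XY controls and rose to 102, 91.3 and 93.2 CPM in XY KO gonads, by 0.60 on the log2 scale (SE 0.13, FDR 0.00391) or 1.51-fold. XX controls held 75.3, 73.4 and 73.4 CPM and XX KO gonads 91.2, 106 and 101 CPM. All 6 KO libraries were above all 6 control libraries. The XX difference was 0.43 (SE 0.13, FDR 0.0692), which missed the threshold, and the KO effects differed between sexes by 0.17 (SE 0.18, FDR 0.587). At E11.5 the KO differences were 0.06 in XY and -0.15 in XX, neither called. The difference between XX and XY controls at that stage was 0.35 (SE 0.11, FDR 0.15). Its seed matches are shown because every KO library exceeded every control in both sexes at E12.5.
miR-17 family, chr2:118529719-118529743, minus strand: gggagggtggGCACTTTgcctggcc
miR-19 family, chr2:118531008-118531032, minus strand: tctttcctaaTTTGCACAaaggtac
The longest 3′ UTR of Bmf has 3801 bases, and 31.02% of the 1715 genes with one 0.8 to 1.2 times as long held 2 or more matches of the 4 families.

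Some markers of other cells were also called in XY KO at E12.5, beside Bax, Bak1 and Bmf. Summed pre-granulosa cell markers were at 115 to 156 CPM in XY controls and 604 to 673 CPM in XY KO gonads, with 7 of 8 higher. Summed mesonephric markers were at 154 to 176 and 325 to 389 CPM, with 7 of 10 higher and 2 lower. Endothelial markers were higher for 2 of 8 genes and germ cell markers lower for 2 of 12, while 0 of 7 tested erythroid and 0 of 8 macrophage markers were called by edgeR (1 and 2 at an unadjusted p below 0.05, 0 and 1 by DESeq2). In XX KO, where Bmf missed the threshold, 7 of 12 germ cell markers were lower, 4 of 10 mesonephric markers were higher and 0 of 8 pre-granulosa and 0 of 10 Sertoli markers were called by edgeR (3 each at an unadjusted p below 0.05, 2 each by DESeq2). Over all tested genes, 10.3% were higher and 10.3% lower in XY KO, and 3.42% higher and 1.85% lower in XX KO. The part of these cells in the differences was not tested.

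Bid (ENSMUSG00000004446, chr6:120891930-120916853, minus strand) links death receptors to the mitochondria through cleavage by caspase 8. At E12.5 it stood at 29.1, 32.3 and 25.4 CPM in XX controls, above the 19.5, 16.4 and 14.4 CPM of XY controls by 0.78 on the log2 scale (SE 0.16, FDR 0.002) or 1.72-fold. XX KO gonads held 25.3, 19.9 and 18.8 CPM and XY KO gonads 19.9, 21.9 and 22.3 CPM, so that the KO sexes overlapped. XX KO lay below all XX controls, and its replicate 3 within the range of XY controls. The XX KO difference of -0.44 (SE 0.16, FDR 0.111) and the XY KO difference of 0.35 (SE 0.16, FDR 0.15) were not called. Their difference of 0.79 was (SE 0.22, FDR 0.0305), but it was lost in 7 of the 12 fits that left out 1 library, at 0.69 to 0.78. The 7 libraries were XX control replicates 1 and 2, XX KO replicate 3, XY control replicates 2 and 3, and XY KO replicates 2 and 3. Germ cell markers were lower for 7 of 12 genes in XX KO (1.85% of all genes) and 2 of 12 in XY KO (10.3% of all genes). The part of germ cells in the Bid levels was not tested. Bid was at 10.1 to 16.6 CPM in all E11.5 libraries. It holds 1 match of the miR-17 family (chr6:120892901-120892925, minus strand): aagagtgcatGCACTTTtagaatat.

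Bbc3 (ENSMUSG00000002083, chr7:16308393-16318205, plus strand) encodes PUMA, another p53 target that binds all pro-survival proteins. At E11.5 it stood at 11.4, 10.8 and 8.42 CPM in XX controls against 7.34, 7.31 and 7.75 CPM in XX KO gonads, and at 8.77, 10.3 and 8.77 CPM in XY controls against 6.82, 7.53 and 7.33 CPM in XY KO gonads. All 6 KO libraries lay below all 6 controls, but the differences of -0.45 in XX (SE 0.15, FDR 0.14) and -0.36 in XY (SE 0.16, FDR 0.134) were not called. At E12.5 XY KO gonads held 2.22, 3.91 and 5.54 CPM, below the 6.62, 6.24 and 6.34 CPM of XY controls, while XX KO gonads at 7.72, 6.88 and 7.48 CPM were above XX controls at 6.19, 5.50 and 5.69 CPM. The XY difference was -0.69 (SE 0.26, FDR 0.0722), the XX difference 0.34 (SE 0.25, FDR 0.415) and the difference between the KO sexes 0.89 (XX over XY, SE 0.25, FDR 0.235). The effects differed between sexes by -1.04 (SE 0.36, FDR 0.0737), also not called. Without XY KO replicate 3, its highest library, the XY difference was -1.08 (FDR 0.00908) and the sex difference of the effects -1.42 (FDR 0.0105), both then called, whereas without XY KO replicate 1 the XY difference was -0.43 (FDR 0.244). DESeq2 called both differences on all libraries (FDR 0.044 and 0.041).

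The rest of the pathway was read from 5 lists with 80 genes in all, of which 72 were tested at E11.5 and 71 at E12.5. In XY KO at E11.5, 4 were higher (5.56%, against 5.88% of all genes) and 0 lower. They included the caspase inhibitor Xiap (231 against 171 CPM, log2 fold change 0.43, SE 0.10, FDR 0.0133) and Bnip3, whose protein sits on mitochondria (31.7 against 24.2 CPM, 0.39, SE 0.12, FDR 0.0495). XX KO at E11.5 had 1 gene higher and 1 lower (1.39% each, against 1.81% and 1.46% of all genes): E2f1, a cell cycle transcription factor, higher by 0.38 (SE 0.10, FDR 0.046) and Vdac3, a mitochondrial channel, lower (-0.41, SE 0.10, FDR 0.0414). No gene of the 5 lists was called the same way in 2 or more of the 4 KO comparisons.

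In XY KO at E12.5, 5 of 71 were higher (7.04%, background 10.3%) and 10 lower (14.1%, background 10.3%), and the median over the 71 was -0.06 beside -0.01 over all genes. The cell cycle inhibitor Cdkn1a was the highest by fold, at 44.7 against 14.1 CPM (1.68, SE 0.18, FDR 7.69e-06), and in XX controls it stood at 41.7 CPM. The stress kinase Plk2 (0.68), the co-chaperone Bag3 (0.73), the TRAIL receptor Tnfrsf10b (0.52) and the death receptor kinase Ripk1 (0.40) were the others. Of the family, the pro-apoptotic Bok (25 against 44.2 CPM, -0.82, SE 0.20, FDR 0.00815) and the BH3-only Bik (1.22 against 2.61 CPM, -1.08, SE 0.32, FDR 0.0261) were lower, as was the mitotic IAP Birc5 (-0.52). Among p53 targets Sesn2 (-0.73), Gtse1 (-0.76) and Aen (-0.50) were lower, and so were Foxo1 (-0.54) and Foxo4 (-0.59), forkhead factors that can drive BH3-only genes, and the MCL1 ubiquitin ligase component Fbxw7 (-0.42). Of these genes called in XY KO, 8 were also called when XX control was tested over XY control, all 8 in the same direction. That test of the controls called 7 of the 71 higher in XX and 7 lower (9.86% each). Over all 14348 genes it called 3413 (23.8%), of which 1634 were higher in XX. Both tests share the XY control libraries, and the share of all genes called in both was not counted. XX KO at E12.5 had 1 of 71 called by edgeR (1.41% higher, background 3.42%), the p53 target Phlda3, at 45.3 against 21.6 CPM (1.07, SE 0.24, FDR 0.0258). In that comparison 19 of the 71 had an unadjusted edgeR p below 0.05, beside 3385 of all 14348 genes. DESeq2 called 10 of the 71, beside 1456 over all genes. By list, in XY KO at E12.5, 0 of 8 tested other BCL2 family genes were higher and 2 lower, against 0 and 2 of 18 for the apoptosome, caspases and IAPs, 2 and 0 of 9 for death receptors, 2 and 3 of 18 for p53 and its targets, and 1 and 3 of 18 for FoxO and other regulators.

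The genes with the pattern most like a member over the 12 libraries of a stage were taken by Pearson's correlation of log2(CPM + 2), a description in which the points share genotypes and scaling. Pmaip1 at E12.5 was most like Jam2 (r 0.994) and Otx2 (r 0.994), Bak1 most like Tcea2 (0.995) and Hdac11 (0.981), Bmf most like Slc24a3 (0.969) and Ccdc80 (0.953), and Bax most like Ddt (0.962) and Mrps6 (0.955). With a pseudocount of 0.5 in place of 2, Rassf5 (0.991) took the place of Otx2 for Pmaip1. Bcl2l11 was most like Trp53inp2 (0.915) and Efcab5 (0.913) at E11.5 and Fam168a (0.906) and Kidins220 (0.899) at E12.5.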

How the data were processed

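RNA-seq of control and miR-17~92 KO gonads was measured in 24 libraries, 12 per stage. The authors mapped reads to mm10 with Subread, assigned them to genes with featureCounts and deposited whole-number counts per gene, with no normalization and no pooling of libraries; the annotation release and the use of strand are not given in the sources used here. Groups were taken from the sample labels. The 12 columns of the Foxl2 tables could not be tied to single labelled samples, because their names do not give the tissue, and were not used.

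Stages were fitted apart in edgeR 4.0.16 (R 4.3.3): genes with at least 1 CPM in at least 2 libraries, TMM scaling, 1 mean per genotype, robust glmQLFit and glmQLFTest, and Benjamini-Hochberg adjustment over all genes tested. Levels are CPM on the TMM-scaled library size. Standard errors are the log2 fold change over the root of the F statistic, and 95% intervals follow from them. No 2 libraries of a group were alike within sampling noise (chi-square per degree of freedom at least 7.19). An exact permutation test of 3 against 3 libraries cannot go below a two-sided p of 0.1, so that groups that do not overlap are described without one. Replicates are separate pools of gonads, and p-values measure the spread between these pools.

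The 10 genes, the pathway and marker lists and the tests were chosen with earlier results of these data known. Folds, SE and FDR are given for each gene of the 10 where called, for Bcl2l11 in every KO comparison and for others from a log2 fold change of 0.5, with further values where the text needs them. Pathway genes named are those called the same way in 2 of the 4 KO comparisons and those called in a KO comparison, some of which are not reported here. Ddit3 had 2 identical rows and was counted once. The erythroid markers include globin genes listed at 0. Exon lengths, 3′ UTRs and coordinates are from GENCODE M21, microRNAs from RefSeq. Alternatives were DESeq2 1.42.0 as scaling and as test, library size alone, no filter, the 2 compared groups alone, a replicate block, leaving out each library, the longest 3′ UTR alone, a pseudocount of 0.5 in place of 2 and, added after the data were seen, the newer form of the quasi-likelihood test. The edgeR fit of the KO against control comparisons was tested on simulated counts, and the other steps were not.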

Additional observations from a re-analysis of the deposited data

Results flagged for a closer look

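For 3 of the 10 genes the effect of the KO at E12.5 differed between XY and XX gonads by the interaction term of the edgeR fit. For Pmaip1 the KO effect in XY minus that in XX was -3.56 on the log2 scale (FDR 2.75e-05). All XY KO libraries lay below all XY controls, and the XX KO difference was not called. For Bcl2 it was 1.02 (FDR 0.0212), with the KO libraries above all controls in XY and below all controls in XX. This call was lost in 4 of the 12 fits that left out 1 library. For Bid it was 0.79 (FDR 0.0305), with the same pattern of directions, and this call was lost in 7 of the 12 fits. The Bid libraries were barely apart. The highest XX KO library was at 25.3 CPM and the lowest XX control at 25.4. The lowest XY KO library was at 19.9 CPM and the highest XY control at 19.5.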

How the results depend on the processing

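Of the 10 calls of single genes, 6 held in every alternative run: Pmaip1 in its 3 comparisons, Bax and Bmf in XY KO, and Bid between controls, all at E12.5. Leaving out 1 library at a time moved the number of genes called, of 10, between 1 and 4 for the sex difference of the KO effect at E12.5, between 3 and 5 for XY KO, 0 and 1 for XX KO, 0 and 3 between the KO sexes and 2 and 3 between controls at that stage. At E11.5 it moved between 0 and 2 for controls (Bcl2 and Bmf, without XY control replicate 2) and between 0 and 1 for XY KO (Bmf, without the same library). In XX KO at E12.5, where 0 were called, scaling by library size alone called 1 (Bcl2), the replicate block 1 (Bcl2) and DESeq2 2 (Bcl2 and Bmf), and between the KO sexes DESeq2 called 1 (Bcl2). Bcl2l11 in XX KO at E12.5 ranged from -0.04 to 0.13 over the fits that left out 1 library. The replicate numbers gave no sign of pairing the samples: deviations of same-numbered libraries correlated at a median of 0.029 (-0.304 to 0.45) at E11.5 and -0.061 (-0.507 to 0.388) at E12.5. Differently numbered libraries gave -0.02 (-0.385 to 0.383) and -0.016 (-0.477 to 0.51). With 3 libraries per group these wide ranges cannot exclude a pairing. Beside Bcl2, the block changed the call of Bak1 between controls at E12.5 (0.40, FDR 0.0508). With the longest 3′ UTR alone, Bcl2l1 had 0 matches in place of 2 and Bcl2l11 5 in place of 6. The causes were not tested. Over all genes, leaving out 1 library moved the number called between 56 and 2505 for the E11.5 controls, 35 and 1680 for XX KO at E12.5 and 14 and 1828 between the KO sexes at E12.5. Pmaip1 rests on 24 to 97 counts per library outside E12.5 XY controls.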
